A study of Schizosaccharomyces pombe with 6 samples.

Results

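The 9 core histone genes of *S. pombe* and *pht1*, the gene of the histone variant H2A.Z, were examined in RNA-seq of WT and *htb1-K119R* cells. The 10 genes were taken by symbol from a table of 5184 genes, and all 10 had rows. The core genes are *hta1* and *hta2* for H2A, *htb1* for H2B, *hht1*, *hht2*, and *hht3* for H3, and *hhf1*, *hhf2*, and *hhf3* for H4. In *htb1-K119R* (labelled H2BK119R and called the mutant below), the lysine of H2B that its name gives (K119R) is replaced by arginine, and *htb1* is the single H2B gene, so H2B monoubiquitination (H2Bub) is absent. The series compares 3 WT libraries with 3 *htb1-K119R* libraries of mRNA from whole cells, which the study describes as independent biological repeats. The study's strain list gives *htb1-K119R* as h- *ura4-D18 htb1-K119R::kanMX6*, with the kanMX6 marker downstream of *htb1*. The WT strain named for the other assays of the study is h+ *ade6-M216 leu1-32 ura4-D18*, and the strain sequenced as WT is not named separately. If it is the same strain, mating type, *ade6*, *leu1*, and the marker differ along with the *htb1* allele, and their parts in any difference cannot be told apart.

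A nucleosome wraps DNA around H2A, H2B, H3, and H4, and new core histones are needed whenever the genome is copied, so most core histone genes are transcribed mainly in S phase. In *S. pombe* the GATA-type factor Ams2 activates them in S phase, the HIRA complex represses them outside it, and the H3 and H4 gene pair *hht2* and *hhf2* is known for being transcribed throughout the cycle. H2A.Z replaces H2A in nucleosomes near the starts of genes, where the Swr1 complex exchanges it, and its supply is not tied to replication. H2B is monoubiquitinated at the lysine replaced in *htb1-K119R* by an E2 of the Rad6 family and the E3 pair Brl1 and Brl2. Yeast histone transcripts are polyadenylated, so that enrichment with oligo(dT) retains them.

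The positions given here are those of the ASM294v3 assembly, matched by gene ID, since the table has no coordinates. The lysine codon lies in the single coding exon of *htb1* (SPCC622.09) at chrIII:1412841-1412843 on the plus strand, with residues numbered without the initiator methionine. It is shown in capitals within 30 bases of the reference, chrIII:1412829-1412858, to mark the residue that distinguishes the genotypes.
htb1, codon of the replaced lysine: aaatccgtcaccAAGtattcttcttctgct
A table of counts does not show which base is present there, so no value in it checks the allele.

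Of the 9 core genes, 8 form divergent pairs with a short shared region between their starts. *hta1* (SPCC622.08c, chrIII:1411144-1412181) and *htb1* (chrIII:1412359-1413677) are 177 bp apart. *hhf1* (SPAC1834.03c, chrI:4698773-4699599) and *hht1* (SPAC1834.04, chrI:4699732-4700560) are 132 bp apart. *hhf2* (SPBC8D2.03c, chrII:1364189-1364984) and *hht2* (SPBC8D2.04, chrII:1365119-1365818) are 134 bp apart, and *hht3* (SPBC1105.11c, chrII:3528800-3529565) and *hhf3* (SPBC1105.12, chrII:3529767-3530388) are 201 bp apart. *hta2* (SPAC19G12.06c, chrI:4052446-4053318) stands alone, as does *pht1* (SPBC11B10.10c, chrII:1502203-1503444). All 10 genes have 1 coding exon in this annotation. Non-coding genes that are not among those counted here lie on the opposite strand along the full length of *hta1* (1038 bp), *hhf2* (796 bp), and *hhf3* (622 bp). Others overlap a part of *pht1* (722 bp), *hht1* (414 bp), *hta2* (242 bp), and *htb1* (151 bp) on the opposite strand. The strand used in counting is not given in the sources used here.

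The letters AACCCT, the box of fission yeast histone promoters to which the Myb-domain protein Teb1 binds, were searched on both strands from 250 bases before to 50 bases after each annotated start. *hta2* and the 6 H3 and H4 genes, 7 genes in all, each had 2 copies, which adjoin each other on the same strand, and *pht1* had 0. Among 5123 windows of protein-coding genes, 498 (9.72%) held at least 1 copy, 37 (0.722%) held at least 2, and 20 (0.390%) held 2 that adjoin. The 4 stretches are shown because these genes share them whether or not their level fell, and both copies are in capitals. Partners of a divergent pair share 1 stretch, and each is read along the strand on which it reads AACCCT, given beside its position.
hta2, chrI:4053362-4053391, minus strand: atccatcaaAACCCTAACCCTgtatattgc
hht1 and hhf1, chrI:4699643-4699672, plus strand: ctgcatcaaAACCCTAACCCTgcttttgat
hht2 and hhf2, chrII:1365051-1365080, minus strand: gtcaatcacAACCCTAACCCTgatttaaga
hht3 and hhf3, chrII:3529618-3529647, plus strand: tttgatcacAACCCTAACCCTttaattaaa
The bases ATCA also precede the box in all 4 stretches, separated from it by 1 base. The letters are a description of the sequence and do not show binding.

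The copies encode the same or nearly the same protein, yet their coding sequences can be told apart. The 3 H3 genes differed at 30 to 48 of 411 coding bases and at 0 residues. The 3 H4 genes differed at 21 to 27 of 312 coding bases and also at 0 residues. *hta1* and *hta2* had 86.5% identity of coding bases and differed at 3 aligned residues, whereas *pht1* shared 52.9% and 53.6% of aligned residues with them. At 50 bases, 6 of 747 stretches of *hhf2* and 6 of 573 stretches of *hhf3* recurred elsewhere in the genome, and no stretch of the other 8 genes did. No stretch of 100 bases recurred for any of the 10 genes.

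Library totals were between 15987167 and 20701391 counts. TMM scaling, which is meant to adjust for differences in RNA composition, gave factors of 0.824 and 0.863 for WT replicates 1 and 2 and 1.01 to 1.17 for the other 4 libraries. The first principal component separated the genotypes (70.1% of the variance), and the second set WT replicate 3 apart (17.4%). The deposited FPKM values are scaled by library totals alone. With library totals in place of TMM, the median log2 fold change of all genes moved from −0.01 to 0.15, and the calls moved from 924 higher and 958 lower to 815 higher and 403 lower. Values in CPM below are TMM-scaled, and FPKM is used where genes of different length are compared.

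In WT the core histone transcripts ranked from 161 to 296 by mean FPKM among the 5184 genes, and *pht1* ranked 650. The highest level was that of *hht3* (1251 ± 81.0 FPKM, mean ± SD of 3 libraries), followed by *htb1* (1203 ± 25.7 FPKM), and their libraries overlapped. *hta2* (1063 ± 32.3 FPKM) and *hht2* (1063 ± 111 FPKM) came next and also overlapped each other. *hhf1* (902 ± 36.3 FPKM) and *hht1* (669 ± 47.6 FPKM) each stood apart from their neighbours in the order. *hhf3* (531 ± 19.5 FPKM) overlapped *hhf2* (502 ± 43.2 FPKM), which overlapped *hta1* (482 ± 25.0 FPKM). *pht1* was far below the core genes at 117 ± 14.2 FPKM.

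In *htb1-K119R* the order differed. *htb1* (1151 ± 59.4 FPKM) and *hht2* (1148 ± 45.6 FPKM) led and overlapped each other. *hht3* (792 ± 21.9 FPKM) overlapped *hta2* (744 ± 37.7 FPKM), and *hta2* overlapped *hhf2* (682 ± 52.3 FPKM). *hhf1* (539 ± 38.1 FPKM) stood between, and *hta1* (415 ± 14.0 FPKM) overlapped *hht1* (383 ± 30.1 FPKM). *hhf3* (320 ± 8.0 FPKM) was the lowest core gene, above *pht1* (149 ± 9.19 FPKM). *hht3*, at place 1 in WT, came at place 3 in the mutant, and *hht2* moved from place 4 to place 2.

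**Figure D1:**
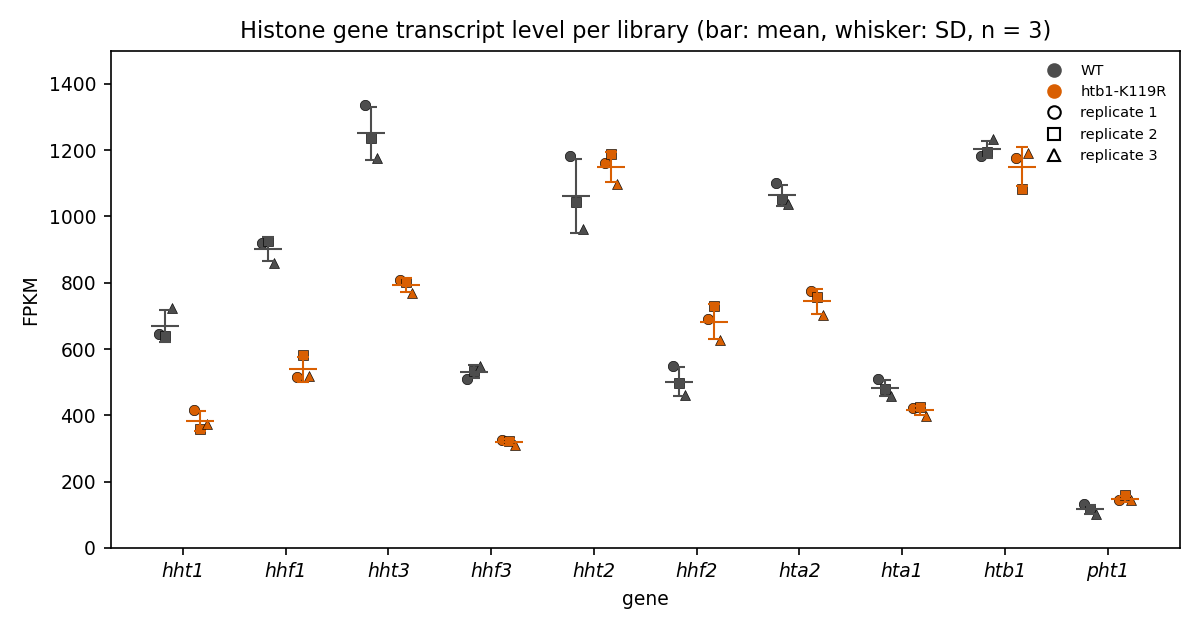
Level of each histone gene in FPKM (vertical axis) in the 3 WT and 3 *htb1-K119R* libraries, with 1 point per library, bars for means, and whiskers for SD (n = 3). The *htb1-K119R* points of *hht1*, *hhf1*, *hht3*, *hhf3*, *hta2*, and *hta1* lie below all WT points. Those of *hhf2* and *pht1* lie above them, and those of *hht2* and *htb1* overlap them. FPKM carries no TMM scaling, and the share of all genes that separate on this scale was not counted.

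Between the genotypes, 5 histone genes fell in *htb1-K119R* at an adjusted p below 0.05 (quasi-likelihood test of edgeR, adjusted over all 4969 genes tested by Benjamini-Hochberg). They were both partners of the *hht1* and *hhf1* pair, both partners of the *hht3* and *hhf3* pair, and *hta2*. By the same rule 19.3% of all genes tested fell. No histone gene rose, whereas 18.6% of all genes did. The other 5 members, *hht2*, *hhf2*, *hta1*, *htb1*, and *pht1*, did not pass the test. At an unadjusted p below 0.05 in edgeR, *hta1* would be added to the decreases and 0 genes to the increases. DESeq2 also called 0 increases, and limma on log2(FPKM + 1) called 2, *hhf2* and *pht1*. None of the 10 changed by more than 2-fold past the test, against 8.35% of all genes in either direction. All *htb1-K119R* libraries were below all WT libraries in CPM for the same 5 genes that passed the test, against 23.9% of all genes. The median log2 fold change was −0.56 over the 10 members and −0.71 over the 9 core genes, beside −0.01 over all genes tested. Fewer cells in S phase and fewer transcripts per cell cannot be told apart in RNA from whole cultures.

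**Figure D2:**
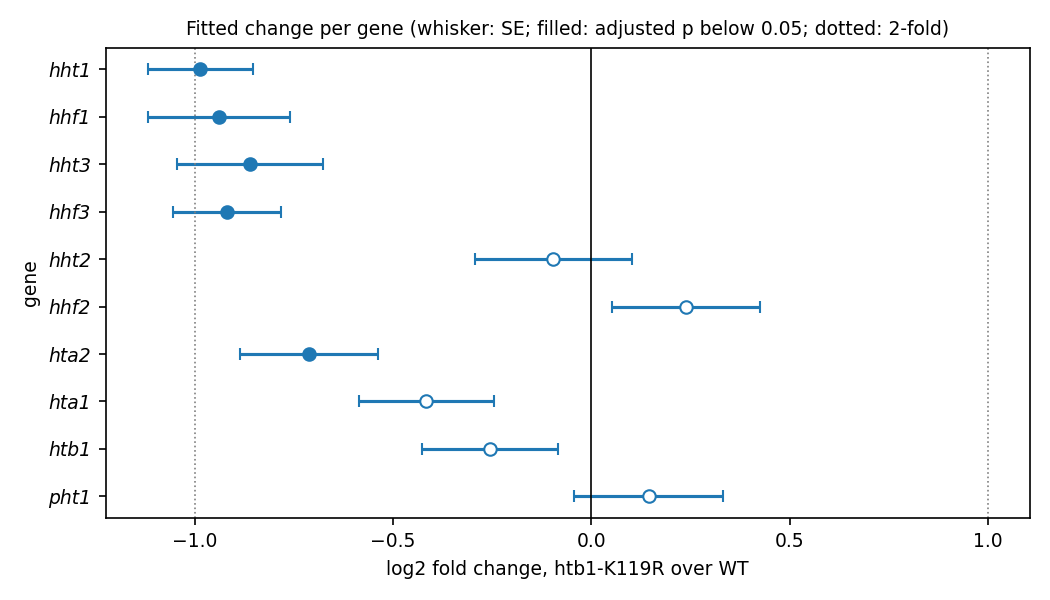
Log2 fold change of *htb1-K119R* over WT (horizontal axis) for each histone gene from the edgeR fit, with whiskers for the SE, filled points for genes that passed the test, and dotted lines at 2-fold. The 5 filled points lie between −0.99 and −0.71, and *hhf2* and *pht1* are the open points right of 0.

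The largest decrease among the histone genes was that of *hht1*, a gene of H3. It had 680, 643, and 538 CPM in the WT libraries and 322, 311, and 307 CPM in the *htb1-K119R* libraries. The lowest WT library in CPM, replicate 3, was still above every mutant library. In FPKM, which carries no TMM factor, replicate 3 was instead the highest WT library (644, 638, and 724). In the fit *hht1* changed by −0.99 on the log2 scale (SE 0.132, adjusted p = 0.000287), which is 0.504 of the WT level. *hhf1*, the H4 gene that shares its promoter region, had 861, 829, and 568 CPM in WT and 352, 446, and 379 CPM in the mutant. The groups did not overlap, and WT replicate 3 was again nearest to the mutant. The fit gave a log2 fold change of −0.94 (SE 0.179, adjusted p = 0.00246).

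Both genes of another H3 and H4 pair fell as well. *hht3*, the H3 gene with the highest WT level, had 1392, 1232, and 863 CPM in WT and 615, 682, and 623 CPM in the mutant. *hhf3*, its H4 partner, had 453, 453, and 343 CPM in WT and 212, 234, and 215 CPM in the mutant. In both genes the lowest WT value in CPM was that of replicate 3, and the groups did not overlap. In FPKM replicate 3 was the lowest WT library of *hht3* (1337, 1238, and 1176). For *hhf3* it was the highest (510, 534, and 549). Their fitted changes on the log2 scale were −0.86 for *hht3* (SE 0.184, adjusted p = 0.00478) and −0.92 for *hhf3* (SE 0.136, adjusted p = 0.000526). *hht3* overlaps 46 bases of *rav1*, a gene on the opposite strand. *rav1* had 7.48 ± 1.90 CPM in WT and 6.85 ± 0.382 CPM in the mutant. Without WT replicate 3, *hht1*, *hhf1*, *hht3*, and *hhf3* each passed 2-fold, with log2 fold changes of −1.08, −1.11, −1.04, and −1.04, so that 4 histone genes in place of 0 met that threshold.

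Neither gene of the pair *hht2* and *hhf2* passed the test. *hht2*, which encodes the same H3 protein, had 1117, 940, and 640 CPM in WT and 800, 916, and 808 CPM in the mutant. The mutant libraries lay within the range of WT. Its fitted log2 fold change came to −0.10 (SE 0.197, adjusted p = 0.729). The sign turned to 0.11 with library totals and to 0.089 without WT replicate 1. Without WT replicate 3 it was −0.29 and passed the test (adjusted p = 0.0222).

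*hhf2*, the H4 partner, had 568, 492, and 337 CPM in WT and 523, 620, and 507 CPM in the mutant. These ranges overlapped through WT replicate 1. In the fit it changed by 0.24 on the log2 scale (SE 0.187, adjusted p = 0.336). On the scale of library totals it passed the test as an increase, with 0.44 (adjusted p = 0.00808), and its FPKM was 502 ± 43.2 in WT and 682 ± 52.3 in the mutant with no overlap. Without WT replicate 3 it was 0.052 (adjusted p = 0.697) and without mutant replicate 2 it was 0.13, neither past the test. The fitted change was positive in each of the 19 alternative settings, of which 7 passed the test.

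*hta2*, the unpaired H2A gene and the more abundant of the H2A copies, fell in *htb1-K119R*. It had 1270, 1161, and 844 CPM in WT and 653, 714, and 632 CPM in the mutant, without overlap. The fit gave a log2 fold change of −0.71 (SE 0.173, adjusted p = 0.00908). Without *htb1-K119R* replicate 3 it was −0.68 and no longer passed (adjusted p = 0.0580). The other H2A gene, *hta1*, had 661, 596, and 420 CPM in WT and 400, 452, and 404 CPM in the mutant. WT replicate 3 lay within the mutant range, and the remaining WT libraries lay above it. In FPKM the groups did not overlap, with 509, 480, and 459 for WT and 422, 425, and 399 for the mutant. *hta1* changed by −0.42 on the log2 scale (SE 0.170, adjusted p = 0.0757), and without WT replicate 3 it was −0.59 and passed the test (adjusted p = 2.42e-05).

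*htb1*, which carries the replaced codon and lies beside the marker, did not pass the test. It had 1854, 1788, and 1360 CPM in WT and 1346, 1387, and 1456 CPM in the mutant. The groups overlapped in CPM at WT replicate 3. In FPKM *htb1* had 1183, 1195, and 1232 in WT, where replicate 3 was the highest. Its fitted log2 fold change came to −0.26 (SE 0.171, adjusted p = 0.260). Without WT replicate 3 it was −0.38 and passed the test (adjusted p = 0.00257), whereas it was −0.065 with library totals and −0.032 with voom after cyclic loess, neither past the test. The annotated end of *htb1* overlaps 258 bases of *sec5*, an exocyst subunit gene on the opposite strand. *sec5* rose from 29.3 ± 3.98 to 39.9 ± 3.78 CPM, by 0.44 on the log2 scale (SE 0.128, adjusted p = 0.0207), a level far below that of *htb1*, and a part of the overlap or of the marker in either value was not tested.

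*pht1* had 201, 171, and 111 CPM in WT and 161, 200, and 171 CPM in the mutant. All mutant libraries lay within the range of WT, whose lowest library was replicate 3. In the fit it changed by 0.14 on the log2 scale (SE 0.188, adjusted p = 0.575), and without WT replicate 3 it was −0.067 (adjusted p = 0.600). On the FPKM scale *pht1* rose from 117 ± 14.2 to 149 ± 9.19 without overlap of the libraries, and limma on log2(FPKM + 1) gave 0.35 (adjusted p = 0.0287).

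The ratio of a pair of histone genes within a library needs no scaling between libraries. Of 10 such ratios of FPKM, 5 did not overlap between the genotypes. The share of ratios of other gene pairs that separate in this way was not counted. The exact two-sided permutation test gave p = 0.1 for each of the 5, the smallest value that 3 against 3 libraries allow (0.2 after Benjamini-Hochberg adjustment over the 10). The widest shift was within H4. The ratio of *hhf2* to *hhf1* was 0.596, 0.536, and 0.537 in the WT libraries and 1.34, 1.25, and 1.21 in the *htb1-K119R* libraries. *hhf2* was thus the lesser of these copies in every WT library and the greater in every mutant library. The mean log2 ratio moved by 1.19, beside SDs of 0.09 in WT and 0.08 in the mutant (n = 3).

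Within H3 the ratio of *hht2* to *hht1* was also higher in every mutant library. *hht2* exceeded *hht1* by a ratio of 1.84, 1.63, and 1.33 in WT and of 2.78, 3.30, and 2.95 in the mutant. The mean log2 ratio was higher by 0.92 in the mutant, beside SDs of 0.23 and 0.13. By contrast, the ratio of *hht3* to *hht1* (1.87 in WT and 2.07 in the mutant, geometric means) overlapped between the genotypes (exact two-sided permutation p = 0.5). The ratio of *hhf3* to *hhf1* also overlapped (0.589 and 0.594, exact two-sided permutation p = 1). Their differences in log2 ratio of 0.15 and 0.01 were smaller than the SDs of WT, 0.18 and 0.10.

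The ratios between divergent partners were compared next. *hht1* to *hhf1* was 0.740 in WT and 0.711 in the mutant, *hht3* to *hhf3* was 2.35 and 2.48, and *hta1* to *htb1* was 0.401 and 0.361, all overlapping (exact two-sided permutation p = 0.8, 0.4, and 0.2). The ratio of *hht2* to *hhf2* did not overlap, at 2.16, 2.10, and 2.09 in the WT libraries against 1.68, 1.62, and 1.75 in the mutant ones. Its mean log2 ratio differed by −0.33, with SDs of 0.03 and 0.05. The H2A genes also separated, with *hta2* at 2.16, 2.19, and 2.26 times *hta1* in WT and 1.84, 1.78, and 1.76 times in *htb1-K119R*. *pht1* relative to *hta1* was 0.257, 0.242, and 0.223 in WT, all below the 0.341, 0.375, and 0.358 of the mutant.

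**Figure D3:**
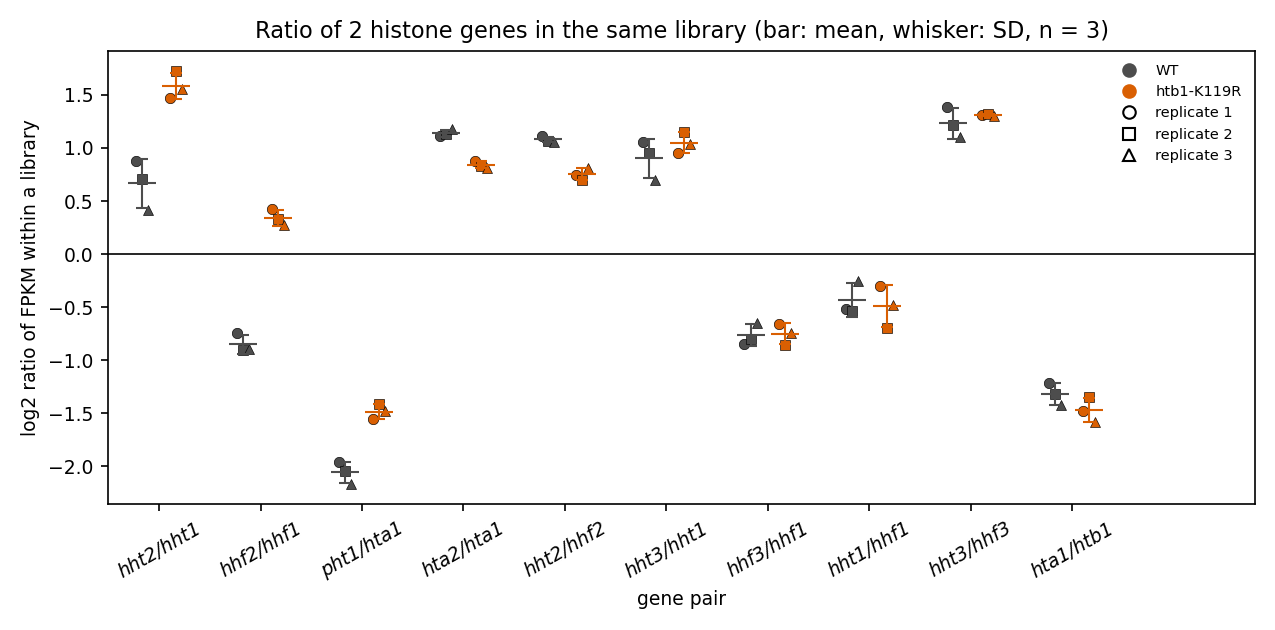
Log2 ratio of FPKM of 2 histone genes in the same library (vertical axis) for 10 gene pairs, with 1 point per library, bars for means, and whiskers for SD (n = 3). The first 5 pairs from the left do not overlap between WT and *htb1-K119R*, and *hhf2*/*hhf1* lies below 0 in all WT libraries and above 0 in all *htb1-K119R* libraries. The share of other gene pairs that separate in this way was not counted.

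The gene copy with the largest share of the H3 and of the H4 transcripts differed between the genotypes. *hhf2* supplied 27.7%, 25.4%, and 24.7% of the summed H4 FPKM in WT and 45.1%, 44.7%, and 43.1% in the mutant. The share of *hhf1* went from 46.6% ± 0.692 to 35.0% ± 1.15 and that of *hhf3* from 27.5% ± 1.77 to 20.8% ± 0.943 (mean ± SD, n = 3). *hhf1* was the leading H4 gene in each WT library, and *hhf2* in each mutant library. For H3, *hht2* supplied 37.4%, 35.7%, and 33.6% in WT and 48.6%, 50.6%, and 49.1% in the mutant. The leading H3 gene was *hht3* in WT (41.9% ± 0.727) and *hht2* in the mutant, where *hht3* had 34.1% ± 0.199 and *hht1* went from 22.5% ± 2.52 to 16.5% ± 1.09. For H2A, *hta2* remained the leading gene with 68.8% ± 0.494 in WT and 64.2% ± 0.517 in the mutant. None of these 8 shares overlapped between the genotypes. The shares within a histone depend on each other, since a larger share of a copy lowers the others, so these are not 8 separate results. No such share was computed for other genes. With counts in place of FPKM, the 95% Wilson interval of a share was at most 0.675 percentage points to either side, which covers counting error only.

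**Figure D4:**
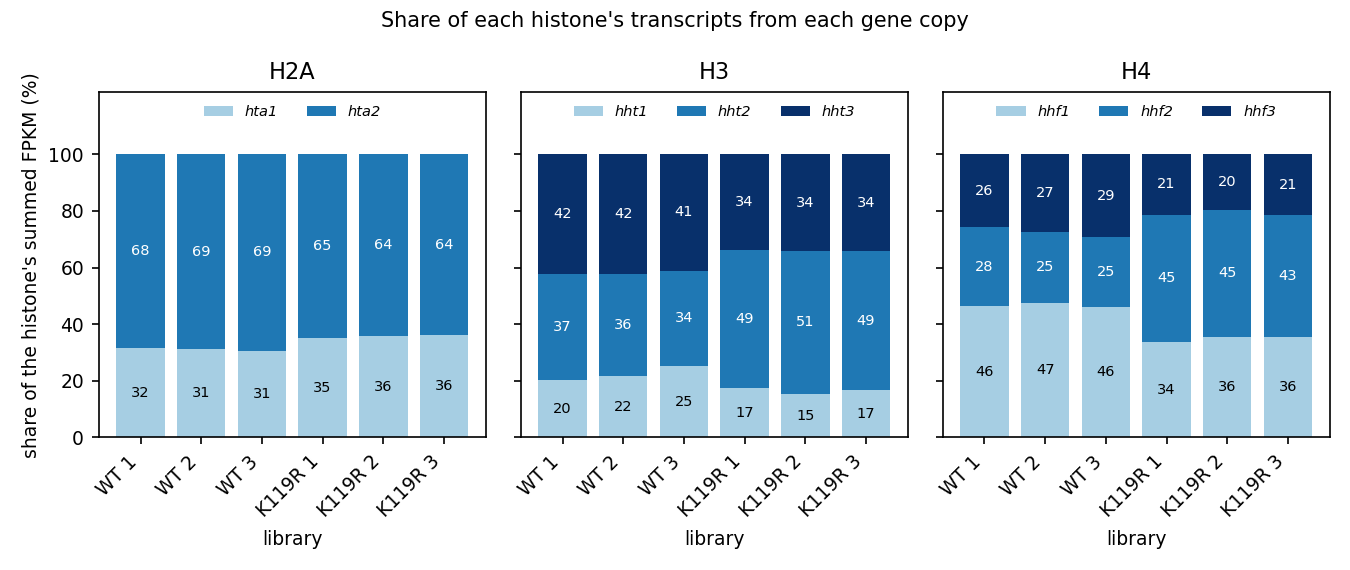
Share in percent of the summed FPKM of H2A, H3, and H4 (vertical axis) from each gene copy in each of the 6 libraries, with the rounded share printed in each segment. The middle segments of H3 and H4, *hht2* and *hhf2*, are larger in each *htb1-K119R* library than in each WT library.

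Summed over copies, the 4 histones did not move alike on the FPKM scale. H3 transcripts went from 2982 ± 161 to 2324 ± 76.5 FPKM (0.779 of WT), H4 from 1935 ± 56.4 to 1541 ± 89.9 (0.796 of WT), and H2A from 1546 ± 57.0 to 1159 ± 51.0 (0.750 of WT), in each case without overlap. H2B, which has *htb1* alone, overlapped with 1203 ± 25.7 and 1151 ± 59.4. The ratio of summed H3 to H4, which is free of scaling, was 1.54 ± 0.0554 in WT and 1.51 ± 0.0655 in the mutant and overlapped. The ratio of H2A to H2B was 1.36, 1.28, and 1.21 in WT and 1.02, 1.09, and 0.923 in the mutant, without overlap. The ratio of H3 to H2B was 2.48 ± 0.179 in WT and 2.02 ± 0.146 in the mutant, also without overlap. That of H4 to H2B was 1.61 ± 0.0804 and 1.34 ± 0.149 and did not overlap either. By contrast, the ratio of H3 plus H4 to H2A plus H2B overlapped, at 1.79 ± 0.0536 and 1.67 ± 0.0773. The 9 core genes together took 0.708% ± 0.0197 of the WT counts and 0.578% ± 0.0130 of the *htb1-K119R* counts. *pht1* made up 7.52%, 7.05%, and 6.41% of the summed H2A and H2A.Z transcripts in WT and 10.7%, 11.9%, and 11.5% in the mutant. These sums and ratios were described and not tested, and the share of all genes that separate on the FPKM scale was not counted.

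Genes that are not histone genes followed the mean profile of the 9 core genes over the 6 libraries closely. Of 3390 genes with at least 10 CPM that are not members, the highest Pearson r of log2 CPM were those of *vht1* (0.999), *rps2601* (0.999), *ssc1* (0.998), *rps1901* (0.998), and SPBC30D10.14 (0.997). For *pht1* they were *bem46* (0.999), SPBC660.06 (0.996), *mfs1* (0.995), *sdh3* (0.994), and *tim17* (0.994). These 6 points share the genotype difference and WT replicate 3, so a high r over them is a description of these libraries.

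Among 11 genes of factors that act on histone gene transcription, 5 rose and 0 fell, beside 18.6% and 19.3% of all genes tested, with a median log2 fold change of 0.11. *ams2*, the S-phase activator, had 23.3, 23.8, and 32.4 CPM in WT and 22.9, 20.3, and 23.1 CPM in the mutant, with a log2 fold change of −0.27 (SE 0.146, adjusted p = 0.167). *teb1* rose by 0.40 (adjusted p = 0.0122). Of the HIRA subunits, *hip1* rose by 1.0 (adjusted p = 0.0216) and *hip4* by 0.35 (adjusted p = 0.0238), whereas *hip3* and *slm9* did not pass. *pof3*, the F-box protein that targets Ams2 for degradation, rose by 1.47 (adjusted p = 0.00256) from a level of 1.49 ± 0.535 CPM, and *pcu1*, the cullin of the same ligase, rose by 0.70 (adjusted p = 0.0209). With library totals in place of TMM, 2 of the 11 rose, and in the limma fits on log2 FPKM 3 did. With GC and length offsets 1 of the 11, *ams2*, fell. Without WT replicate 2 or mutant replicate 1 or 3, 2 rose, and without WT replicate 1 or mutant replicate 2, 3 rose.

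Of 11 tested genes of the Swr1 complex and its partners, which exchange H2A.Z, 4 rose and 1 fell (median 0.18), beside 18.6% and 19.3% of all genes. The ATPase gene *swr1* rose by 0.95 (adjusted p = 0.0144), *alp5* by 1.01 (adjusted p = 0.000234), *msc1* by 0.48 (adjusted p = 0.0391), and *arp6* by 0.44 (adjusted p = 0.0455). *vps71* was the member that fell, by 1.48 on the log2 scale (adjusted p = 0.00121), from 4.64 ± 0.266 to 1.66 ± 0.488 CPM. With library totals or without WT replicate 2, 2 rose, and without mutant replicate 1 or 3, 1 rose. Of 9 tested histone chaperone genes, only *pcf2* of the CAF-1 complex passed (−0.58, adjusted p = 0.0234). It no longer did so without WT replicate 2 or mutant replicate 1 or 3, and without WT replicate 3 another 3 genes of that list rose. For the centromeric H3 variant CENP-A, *cnp1* itself had 5.46 ± 0.517 CPM in WT and 5.06 ± 0.803 CPM in the mutant (log2 fold change −0.11, adjusted p = 0.667). Of the 5 genes of that list, 2 fell, the CENP-A chaperone gene *scm3* (−0.75, adjusted p = 0.0330) and *mis16* (−0.60, adjusted p = 0.00196). With any library other than WT replicate 3 left out, *mis16* alone passed, and with library totals neither these 2 nor *pcf2* did.

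Transcripts of other cell cycle phases were read beside the histone genes. Of 12 G1/S transcripts, 4 fell and 1 rose (median −0.27), beside 19.3% and 18.6% of all genes. Those that fell were *dut1* (−0.87, adjusted p = 0.000273), the ribonucleotide reductase gene *cdc22* (−0.57, adjusted p = 0.00527), the B-type cyclin gene *cig2* (−0.45, adjusted p = 0.00767), and *mik1* (−0.71, adjusted p = 0.0359), and the cohesin gene *psm3* rose (0.66, adjusted p = 0.0252). With library totals 1 fell, without mutant replicate 3 it was 2, and with any other library left out it was 3, except for 6 without WT replicate 1. With GC and length offsets 7 fell, with or without the replicate block, and 1 fell in the limma fits on log2 FPKM. The increase of *psm3* was lost with library totals, with or without the top 100 genes, with GC and length offsets, in the limma fits, and without WT replicate 1 or 2 or mutant replicate 1 or 3. Of 6 mitotic transcripts, *slp1* (−0.88) and *sid2* (−0.76) fell, and *cdc15* (0.41) and *fkh2* (0.48) rose (adjusted p between 0.000124 and 0.0256). Only 1 of the 2 decreases passed with library totals and in the limma fits on log2 FPKM. Neither increase passed with library totals, with GC and length offsets, in the limma fits, or without WT replicate 2 or mutant replicate 3, and 1 passed with library totals without the top 100 genes or without mutant replicate 1 or 2. Of 9 M/G1 transcripts of septum separation, 8 fell and 1 rose (median −1.01). The largest decreases were those of *agn1* (−1.29, adjusted p = 7.07e-05), *adg1* (−1.14, adjusted p = 8.59e-05), and *eng1* (−1.10, adjusted p = 3.23e-05), which act at the septum or cell surface, and *rgf3* rose (0.45, adjusted p = 0.0157), a call lost with GC and length offsets, in the limma fits on log2 FPKM, and without mutant replicate 1 or 2. With library totals 5 of the 9 fell, and with 1 library left out 7 or 8 did. The study had already reported a decrease of *eng1* from this RNA-seq, so that decrease was known before the list was counted. The part of a different distribution of cells over the cycle in the histone values was not tested.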

How the data were processed

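The 6 RNA-seq libraries were 3 of WT and 3 of *htb1-K119R* cells. Total RNA was prepared by the authors with Trizol, and oligo(dT)-enriched mRNA was sequenced on a HiSeq instrument. After removal of rRNA, reads were aligned with HISAT2 to the Ensembl release 45 genome. The deposited counts are whole numbers with no normalization, and the counting tool and strand are not given in the sources used here. The authors computed FPKM values via StringTie. For 4154 of 4370 genes checked, including the 10 histone genes, count divided by FPKM and library total was the same in all libraries within 0.5%, so the deposited FPKM carries no composition scaling. The deposited fold changes, p-values, and FDR of the authors' comparison were not used, nor was a table of the 327 genes past the study's thresholds, which repeats values of the whole table in 12 columns.

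A model of genotype alone was fitted to the counts of all genes (edgeR 4.0.16, R 4.3.3), using TMM, filterByExpr (4969 genes kept, all 10 members included), the quasi-likelihood test, and Benjamini-Hochberg adjustment. Each adjusted p in the text is of this kind unless another tool is named. SE values were computed back from the F statistic. Genes past an FDR of 0.05 were called, and the study's further 2-fold threshold was counted separately. FPKM ratios within a library were compared by exact two-sided permutation tests (scipy 1.17.1, numpy 2.4.6, pandas 2.3.3, Python 3.11.15). A count of 3 corresponds to 0.145 to 0.188 CPM before TMM scaling. Positions and sequences come from ASM294v3 (RefSeq), to which 5109 of 5184 IDs matched. Release 45 could not be compared with this assembly, because the table has no coordinates.

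The alternatives were RLE normalization, library totals with and without the 100 genes of highest count, DESeq2 1.42.0, no low-count filter, a minimum of 10 counts per library, a replicate block, lowess offsets (span 0.3) for GC content and length with and without the block, limma 3.58.1 on log2(FPKM + 1) and log2(FPKM + 0.1) above a mean FPKM of 1, limma with no such filter, an FDR of 0.01, and leaving out each library. limma-voom after cyclic loess was added after seeing the data. The fits were tested on simulated data. The histone genes, the further gene lists, and the tests were chosen with earlier results of these data known. All 10 members are described. From each further list, genes in a count of 5 or fewer are named, otherwise the 3 largest changes in each direction, and *ams2* and *cnp1* in any case. The genes *swc5* and *spt16* of those lists were not among the genes tested, either not found by name or removed by the low-count filter. The promoter stretch of 1 histone gene pair is not reported here.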

Additional observations from a re-analysis of the deposited data

How the results depend on the processing

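The 5 decreases kept their direction in all 19 alternative settings, and *hht1*, *hht3*, *hhf1*, and *hhf3* passed the test in each, while *hta2* passed in 18. With any 1 library left out, between 4 and 8 histone genes were lower past the test, 0 were higher, and between 0 and 4 also passed 2-fold. The 8 and the 4 came without WT replicate 3. Without *htb1-K119R* replicate 1 or 2, 1 gene passed 2-fold. The number of genes that rose was 1 with library totals, with totals without the top 100 genes, with GC and length offsets plus the replicate block, and with voom after cyclic loess (*hhf2* in each), and 2 (*hhf2* and *pht1*) with the 3 limma fits of FPKM. The sign of *hht2* turned to 0.11 with library totals, 0.041 without the top 100 genes, 0.039 with GC and length offsets, 0.056 with those offsets and the replicate block, 0.12 in the 3 limma fits, and 0.095 with voom. With 1 library left out, *hht2* ranged from −0.29 (without WT replicate 3) to 0.089 (without WT replicate 1), and *pht1* from −0.067 (without WT replicate 3) to 0.34. *hta1* passed the test in 5 settings and *htb1* in 1. The ratio of *hht1* to *hhf1* differed between the genotypes by −0.15 to 0.044 on the log2 scale with 1 library left out, and that of *hhf3* to *hhf1* by −0.033 to 0.071. Between 5 and 6 ratios did not overlap when 1 library was left out. Leaving out a library cannot make separated groups overlap, so this count is no check of the 5. Of 266 counts of genes past the test in the further lists under an alternative, 179 stayed within 1.5 times the value in the text. The causes were not tested.

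The labels number the repeats and do not say whether same-numbered libraries pair. Same-numbered libraries had deviations that correlated at −0.23, 0.36, and 0.30, and differently numbered ones at −0.51 to 0.37. With 3 libraries per genotype these values cannot decide whether the samples pair. With the replicate block alone, 5 histone genes were lower and 0 higher past the test, with log2 fold changes of −0.98 for *hht1*, −0.92 for *hhf1*, −0.83 for *hht3*, −0.91 for *hhf3*, and −0.69 for *hta2*, and calls over all genes were 1026 higher and 1002 lower. The block cannot change a mean difference in log2 ratio, since each genotype has every replicate number, so it is no check of the ratios. With 3 libraries per genotype, the TMM-scaled CPM of *hht2*, *hhf2*, *hta1*, *htb1*, and *pht1* overlapped between the genotypes.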
